A study of Homo sapiens with 32 samples.

Results

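The 42 genes described here encode subunits of the Polycomb repressive complexes and of the INO80 chromatin remodeler, 29 Polycomb and 13 INO80 genes of 19970 protein-coding genes on chromosomes 1 to 22 and X. They were taken as a named list, chosen with earlier results of these data known. For each gene, peak summits of YY1, ZNF143, SP1 and NRF1 were looked up within 500 bp of the 5′ end of the gene in the GENCODE 44 annotation of hg38. A summit is the position of highest signal in a region where chromatin immunoprecipitation and sequencing (ChIP-seq) recovered more DNA than the peak caller's background. Each summit has a score, the −log10 of the caller's p-value or q-value, so that a larger score marks a stronger departure from background.

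All samples were HEK293T cells, a widely used line derived from human embryonic kidney, grown as 1 clone in which ZNF143 carries a dTAG degron, a domain that lets the small molecule dTAGV-1 send the protein to degradation. All 10 groups shared this clone and degron. SP1, NRF1 and YY1 were each precipitated from 4 samples of untreated cells and 4 samples of cells given 50 nM dTAGV-1 for 30 minutes, and ZNF143, through its HA tag, and a mock precipitation from 2 and 2. The 4 summit lists hold 106658 summits for YY1, 16600 for ZNF143, 126275 for SP1 and 39194 for NRF1. Each list stands for an antibody and gives no value per sample or treatment, so no value below has a spread between replicates, and treated cells were not compared with untreated cells. Signal in the mock precipitation was not analysed here. Scores and list length both grow with read depth, which is unknown from the lists, and scores were compared only within a list. The lowest score was 2.0 in each list.

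Polycomb repressive complex 2 (PRC2) methylates histone H3 through EZH1 or EZH2, held together by EED, SUZ12 and the histone binders RBBP4 and RBBP7. Polycomb repressive complex 1 (PRC1) ubiquitinates histone H2A through RING1 or RNF2, each paired with a PCGF protein. Chromobox and Polyhomeotic proteins complete the canonical forms of PRC1, and RYBP or YAF2 mark the variant forms. INO80 is an ATP-driven remodeler that moves nucleosomes and edits their H2A variants. YY1 is the mammalian homologue of fly Pleiohomeotic, which brings Polycomb proteins to DNA in flies, and it also copurifies with human INO80. ZNF143, SP1 and NRF1 are activators that bind promoters, many of them of widely expressed genes.

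The bases around some of the highest summits are given first, from hg38, because they show where consensus letters stand near a summit and where summits of several factors share a short stretch. Letters searched on both strands were AANATGGCG for YY1, CCCANNATG for ZNF143, GGGGCGG for SP1 and GCGCANGCG for NRF1. A match to the letters is a description of the sequence, and no match says only that these letters are not in the window. Capitals mark the letters, and each line is read 5′ to 3′ on the strand named. In 4 members the YY1 letters lay within 50 bp of the highest YY1 summit.
MTF2 (chr1:93079288-93079317, plus strand): gcgggaaaccAAAATGGCGaggggctgtat
RNF2 (chr1:185045543-185045572, minus strand): gccgccgcacAATATGGCGagcctcagctt
PCGF1 (chr2:74507652-74507681, minus strand): atcagcctttAAGATGGCGtctcctcaggg
INO80E (chr16:29996052-29996081, minus strand): tgacgccacaAAAATGGCGgacgctggaaa

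The ZNF143 letters lay within 50 bp of the highest ZNF143 summit in 2 members, SUZ12 at 5 bp and MTF2 at 30 bp. In MTF2 the ZNF143 and YY1 letters are centred 36 and 67 bp downstream of the gene 5′ end.
SUZ12 (chr17:31936762-31936791, plus strand): tccttctctcCCCACAATGcaccggggcca
MTF2 (chr1:93079257-93079286, plus strand): gctccgcgctCCCAGAATGcaccggcagtc

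The NRF1 letters lay within 50 bp of the highest NRF1 summit in 12 members. The sites of 5 members with some of the highest NRF1 scores, chosen after their values were seen, are shown because these scores are far above the level of most genes.
MCRS1 (chr12:49567899-49567928, minus strand): ccgaaaagctGCGCATGCGtgggccggacc
INO80C (chr18:35497676-35497705, plus strand): gtttcgcgacGCGCACGCGcagcctgggag
INO80E (chr16:29995670-29995699, plus strand): acagcggctcGCGCACGCGcagtgctgcgg
PHC3 (chr3:170181734-170181763, minus strand): ccgccgggggGCGCATGCGcagcccatgtt
PCGF1 (chr2:74507465-74507494, plus strand): ctctgtctctGCGCAGGCGcactgggcgcc

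The last set, also chosen after the values were seen, shows the 120 bases before the 5′ end of 3 members, read along the gene. In INO80B and ACTR8 the highest summits of all 4 lists fall inside these 120 bases. In PCGF6 those of ZNF143, SP1 and NRF1 do. Capitals mark the SP1 letters in INO80B, which are centred 32 bp before the gene 5′ end, and the NRF1 letters in ACTR8, here on the other strand. No letters of the 4 lie wholly inside the PCGF6 stretch, but the NRF1 letters straddle its end, centred 1 bp before the 5′ end and 3 bp from the highest NRF1 summit.
INO80B (chr2:74454967-74455086, plus strand): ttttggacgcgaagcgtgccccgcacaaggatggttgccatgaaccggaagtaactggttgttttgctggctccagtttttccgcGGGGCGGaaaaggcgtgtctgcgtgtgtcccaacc
ACTR8 (chr3:53882153-53882272, minus strand): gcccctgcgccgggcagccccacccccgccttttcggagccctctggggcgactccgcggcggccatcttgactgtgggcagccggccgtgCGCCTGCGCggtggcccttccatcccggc
PCGF6 (chr10:103351145-103351264, minus strand): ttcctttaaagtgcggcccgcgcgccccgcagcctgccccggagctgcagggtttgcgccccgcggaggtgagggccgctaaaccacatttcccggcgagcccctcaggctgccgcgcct

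Most Polycomb and INO80 genes carried a summit of YY1 and SP1 at the 5′ end, and about as many had ZNF143 as lacked it. YY1 had a summit at 35 of the 42 genes (83.3%), against 57.8% of all protein-coding genes. ZNF143 had one at 22 (52.4%), against 31.7%. SP1 had one at 38 (90.5%), against 59.1%, and NRF1 at 30 (71.4%), against 48.3%. The share of the 42 genes was above that of all genes in each list.

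Summits of all 4 lists stood at 18 of the 42 genes (42.9%), against 28.1% of all genes. No list had a summit at 3 genes, EED, AEBP2 and PHF19, against 37.3% of all genes. A further 12 genes had summits of 3 lists (28.6%), against 20.1% of all genes. The largest pattern after the complete one was YY1, SP1 and NRF1 without ZNF143, at 8 genes (19.0%), near the 17.4% of all genes. These were PCGF2, PCGF3, CBX2, CBX7, CBX8, YAF2, ACTR5 and UCHL5. YY1 and SP1 alone stood at 5 genes (11.9%, all genes 7.4%), RING1, BMI1, PCGF5, RYBP and INO80D. All 22 members with ZNF143 also had SP1, as did 6184 of the 6323 genes with ZNF143 among all genes. The window decides some of these calls: YY1 at RUVBL1 (491 bp) and ZNF143 at PHC2 (494 bp) lay just inside it, and ZNF143 at RUVBL1 (503 bp), SP1 at RUVBL1 (515 bp) and YY1 at EZH2 (528 bp) just outside.

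These shares have to be read beside the base composition of the promoters. The ratio of observed to expected CpG within 500 bp of the 5′ end had a median of 0.778 over the 42 genes and 0.688 over all genes, and 39 of the 42 reached 0.6, the usual limit for a CpG island, against 60.1% of all genes. Among all genes that reached it, 85.2% had a YY1 summit, 49.2% a ZNF143 summit, 85.6% an SP1 summit and 74.1% an NRF1 summit. Of the 39 CpG-rich members, 35 had YY1 (89.7%), 22 had ZNF143 (56.4%), 37 had SP1 (94.9%) and 30 had NRF1 (76.9%). Set against CpG-rich genes, a background chosen after seeing the data, the members' shares were still higher in every list but lay much nearer to it.

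**Figure D1:**
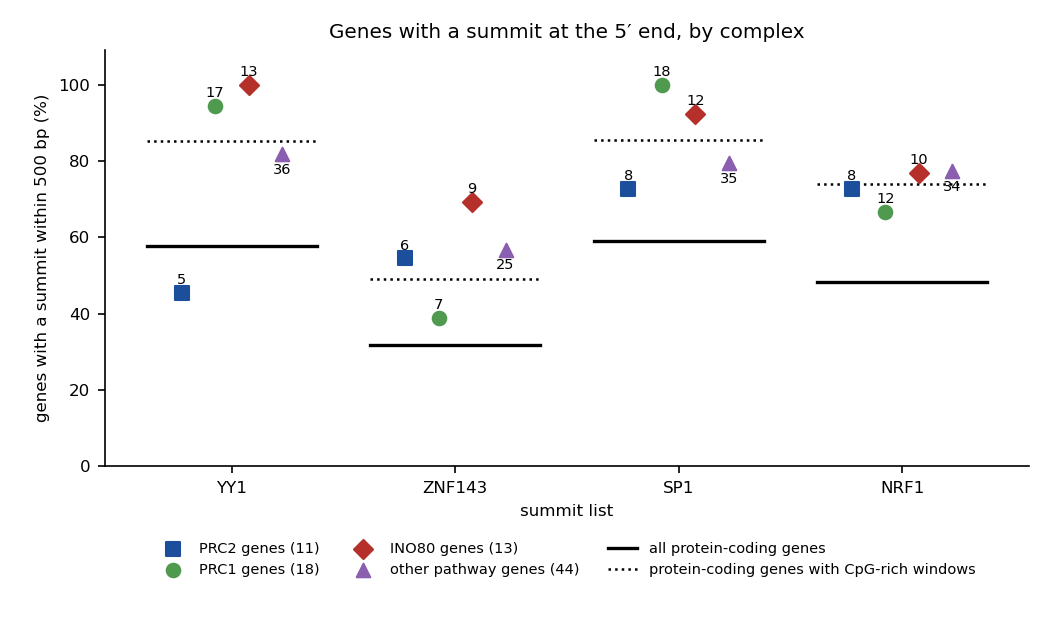
Percent of genes (vertical axis) with a summit within 500 bp of the gene 5′ end in each summit list (horizontal axis), for the 11 PRC2, 18 PRC1 and 13 INO80 genes and for 44 other genes of the pathways, with the number of genes beside each point. Solid lines mark all protein-coding genes and dotted lines those with CpG-rich windows; YY1 stood at all 13 INO80 genes and at 5 of the 11 PRC2 genes.

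By complex, YY1 had a summit at 13 of 13 INO80 genes, 17 of 18 PRC1 genes and 5 of 11 PRC2 genes (45.5%), beside 57.8% of all genes. At the canonical transcript start the PRC2 count was 8 of 11 (72.7%), beside 63.1%. ZNF143 stood at 9 INO80, 7 PRC1 and 6 PRC2 genes, SP1 at 12, 18 and 8, and NRF1 at 10, 12 and 8. The shares over all genes were 31.7%, 59.1% and 48.3% for these 3 lists. Among CpG-rich genes the shares were 85.2% for YY1, 49.2% for ZNF143, 85.6% for SP1 and 74.1% for NRF1. Counts by group below are to be read beside these shares too. Of the 7 members without YY1, 6 encode PRC2 subunits, EZH2, EED, JARID2, AEBP2, PHF1 and PHF19, and the other was KDM2B. The difference between complexes was not tested, since the members were chosen with earlier results of these data known.

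Among the genes with a summit, scores ranged widely. The median YY1 score of the highest summit was 280.7 over members and 138.6 over all genes, and the median NRF1 score was 1175 against 48.04. With windows of 1000 bp the NRF1 medians were 472.5 and 51.11. The median ZNF143 score was 65.12 against 23.56, but the upper quartile was lower in members, 338.3 against 706.5. For SP1 the medians were 182.6 and 197.1, and the order turned with windows of 250 bp, where they were 269.1 and 200.5. SP1 scores of the members thus stood on no fixed side of those of all genes. Of the members with a summit, 15 of 35 for YY1, 5 of 22 for ZNF143, 14 of 38 for SP1 and 16 of 30 for NRF1 ranked above the upper quartile of all genes with a summit in that list.

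**Figure D2:**
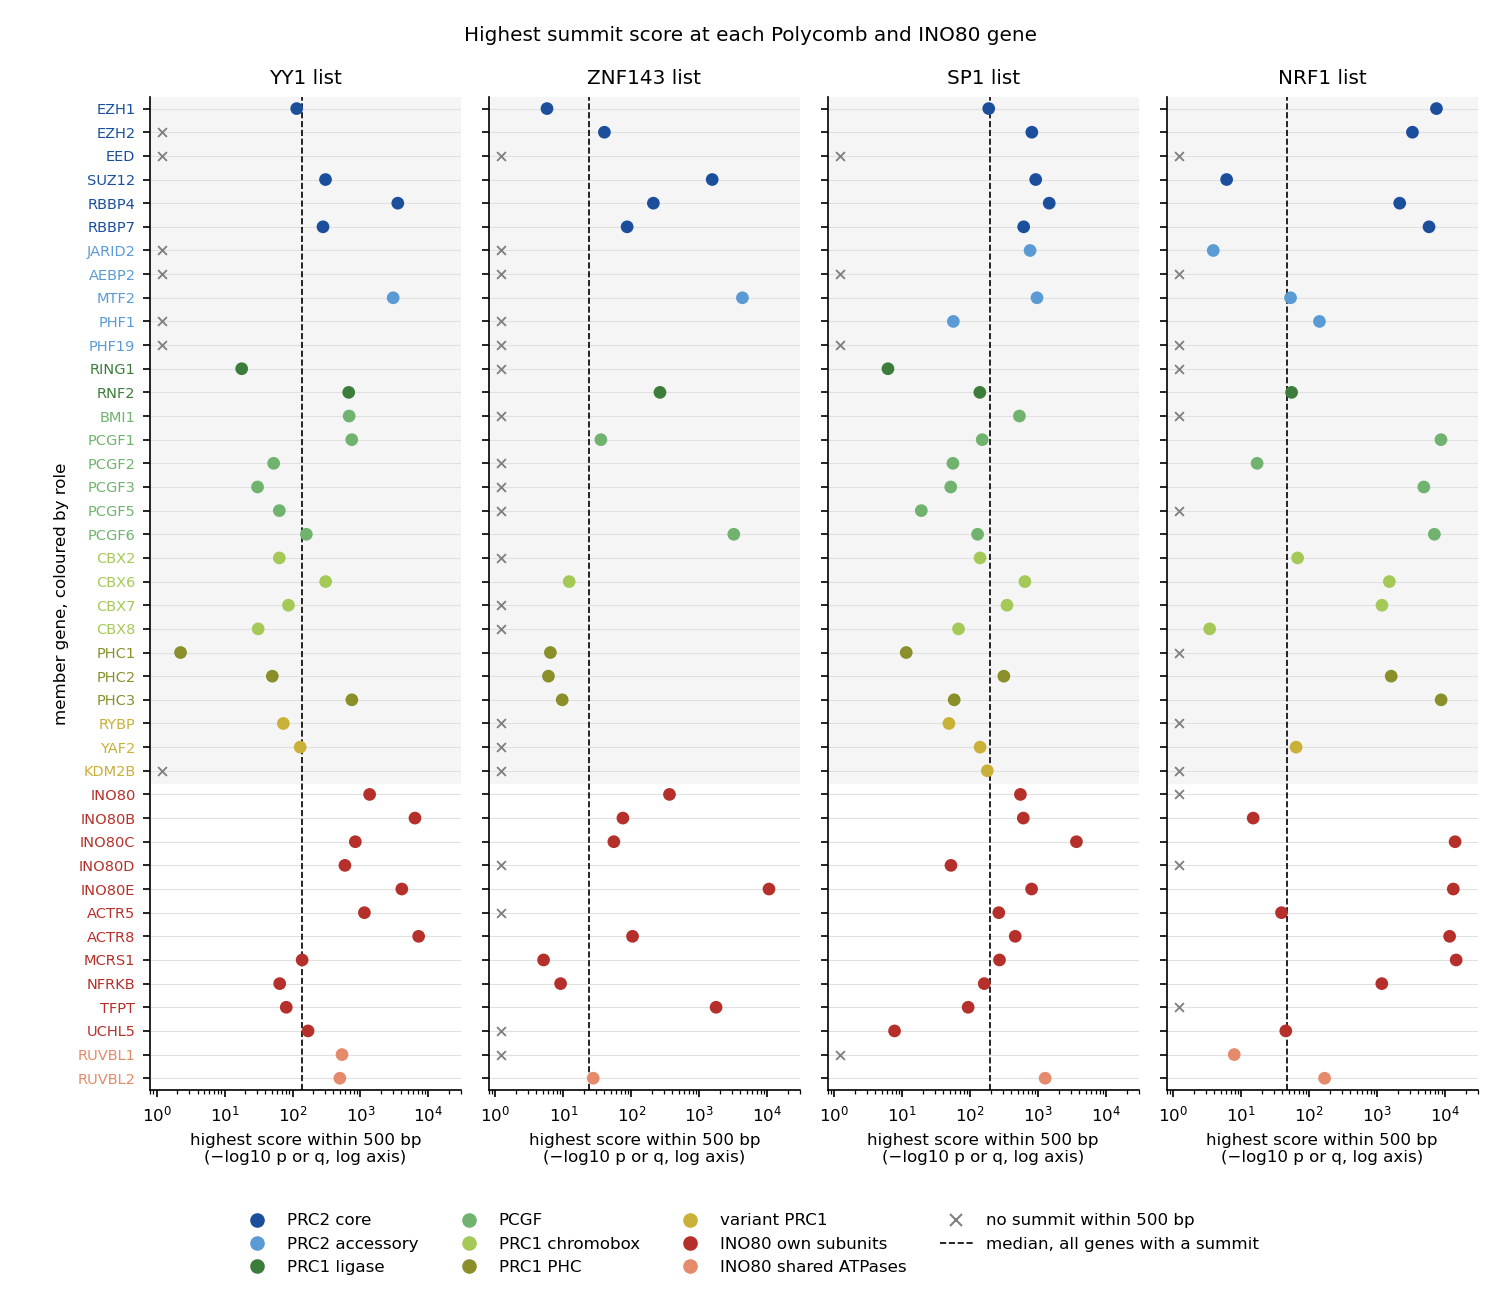
Score of the highest summit within 500 bp of the gene 5′ end (horizontal log axis, −log10 p or q) for each of the 42 genes (rows, coloured by role), with 1 panel per summit list. Crosses mark genes with no summit and dashed lines the median of all genes with one; YY1 scores reach 7170 at ACTR8, and the PRC2 accessory genes other than MTF2 lack YY1 and ZNF143.

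The PRC2 core genes fell into several states. EED, the subunit that reads methylated H3, had no summit within 500 bp, and its nearest ones were 1321 bp away for YY1 and 1607 bp for SP1. EZH2, the main catalytic subunit of dividing cells, had ZNF143 (40.1), SP1 (805) and NRF1 (3311) but no YY1, whose nearest summit lay 528 bp away, just outside the window. EZH1, its paralogue in resting cells, carried all 4, with scores of 115 for YY1, 5.73 for ZNF143, 187 for SP1 and 7469 for NRF1. NRF1 scores at both methyltransferase genes were far above the median of 48.04 over all genes, and the ZNF143 score was above the median of 23.56 at EZH2 and below it at EZH1.

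SUZ12, the scaffold of PRC2, had 1545 for ZNF143, 918 for SP1, 306 for YY1 and 6.11 for NRF1, which places it in the top 21.0% of genes with a summit for ZNF143 and only in the top 89.0% for NRF1. RBBP4, a histone binder shared with other complexes, had high scores in 3 lists, 3539 for YY1, 1451 for SP1 and 2150 for NRF1, with 211 for ZNF143. Its paralogue RBBP7, on chromosome X, had 281 for YY1, 86.5 for ZNF143, 611 for SP1 and 5808 for NRF1. The YY1 score at RBBP4 was the highest of any Polycomb gene here.

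Among the PRC2 accessory genes, MTF2 stood apart. MTF2, a Polycomb-like protein that helps PRC2 bind CpG islands, had 3025 for YY1, 4302 for ZNF143, 958 for SP1 and 53.3 for NRF1. Its highest summits lay within 82 bp of each other, and its ZNF143 score was the highest of any Polycomb gene. JARID2, a cofactor that stimulates PRC2, had SP1 at 759 and NRF1 at 3.89. Its nearest YY1 and ZNF143 summits were 563 and 608 bp away. PHF1, another Polycomb-like gene, had SP1 at 56.4 and NRF1 at 142, with the nearest YY1 summit 7828 bp away. AEBP2 and PHF19 had no summit in any list at the gene 5′ end.

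The PRC1 ligase genes contrasted. RNF2 had all 4, at 671 for YY1, 263 for ZNF143, 138 for SP1 and 55.2 for NRF1. RING1 had only YY1 at 17.9 and SP1 at 6.15, the lowest SP1 score of any member, and its nearest ZNF143 and NRF1 summits were 8061 and 7722 bp away. RING1 lies in the major histocompatibility region, and the 51 bases centred on its 5′ end recur exactly on 5 alternate or unplaced contigs of hg38. Such copies were found for PHF1 (2), PCGF2 (1) and TFPT (9) too, and for 827 protein-coding genes in all. The share of genes with a summit was 26.7% with copies and 59.2% without for YY1, 11.6% and 32.5% for ZNF143, 33.5% and 60.2% for SP1, and 18.1% and 49.6% for NRF1. The part of these copies in the values of RING1, PHF1, PCGF2 and TFPT was not tested.

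All 6 PCGF genes, which define the forms of PRC1, had YY1 and SP1, against 57.8% and 59.1% of all genes. The highest YY1 summit of each lay downstream of the 5′ end, from 78 bp in PCGF1 to 460 bp in BMI1, which had a lower YY1 summit 38 bp upstream (-38) too. YY1 scores were 744 at PCGF1, 681 at BMI1 (also called PCGF4), 160 at PCGF6, 63.9 at PCGF5, 52.8 at PCGF2 and 30.6 at PCGF3. ZNF143 stood only at PCGF6, with 3210 and an offset of -25 bp, and at PCGF1, with 35.6. NRF1 was high at PCGF1 (8700), PCGF6 (6959) and PCGF3 (4868), low at PCGF2 (17.2) and not found at BMI1 or PCGF5, where its nearest summits were 2089 and 563 bp away. PCGF1 and PCGF6 were the PCGF genes with summits of all 4 factors.

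The 4 chromobox genes measured, whose proteins bind methylated H3, all had YY1, SP1 and NRF1 (all genes 57.8%, 59.1% and 48.3%). CBX6 was the only one with ZNF143, at 12.2. CBX6 also had the highest values of the group, 307 for YY1, 637 for SP1 and 1514 for NRF1. CBX7 had 87.1, 347 and 1179 in these lists. CBX2 had 63.9, 139 and 67.7, and CBX8 had 31.2, 67.2 and 3.44. The NRF1 score of CBX8 was the lowest of all members at the gene 5′ end.

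The Polyhomeotic genes, whose proteins polymerise through their SAM domains, all had ZNF143, at scores from 6.02 at PHC2 to 9.60 at PHC3, all under the median of 23.56. PHC3 had 746 for YY1 and 8744 for NRF1, and PHC2 had 50.4 and 1612. PHC1 had the lowest YY1 score of any member, 2.25, with SP1 at 11.4 and no NRF1. None of the 3 variant PRC1 genes had ZNF143, which stood at 31.7% of all genes. RYBP, whose protein also binds YY1, had YY1 at 73.3 and SP1 at 48.5, and YAF2, its paralogue, had YY1 at 130, SP1 at 140 and NRF1 at 64.3. KDM2B, which recruits variant PRC1 to unmethylated CpG, had only SP1 at 178, 449 bp inside the gene. Its nearest YY1 and NRF1 summits were at 573 and 546 bp.

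All 13 INO80 genes carried YY1, at a median score of 590.0 against 138.6 for all genes, and 9 of the 13 ranked above the upper quartile of genes with a YY1 summit. ACTR8, an actin-related subunit, had 7170, and INO80B had 6332, which place them in the top 1.19% and 1.49% of genes with a YY1 summit. INO80E had 4056.5, INO80, the ATPase, 1363, ACTR5 1141 and INO80C 839. The lowest YY1 scores were 64.8 at NFRKB, 80.9 at TFPT, 138 at MCRS1 and 169 at UCHL5. Over the 22 Polycomb genes with YY1 the median was 122.4.

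ZNF143 was strong at INO80E (10577, the highest of all members) and at TFPT (1761). It was moderate at INO80 (363), ACTR8 (104), INO80B (75.1) and INO80C (55.2). It was weak at RUVBL2 (27.4), NFRKB (9.09) and MCRS1 (5.11, the lowest of all members). The nearest ZNF143 summit lay 73172 bp from INO80D and 213988 bp from ACTR5, but only 661 bp from UCHL5 and 503 bp from RUVBL1, just outside the window.

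NRF1 scores at the INO80 genes lay at both ends of the range. MCRS1 (14558), INO80C (14037.5), INO80E (13210) and ACTR8 (11669) had the highest NRF1 scores of all 42 genes, and MCRS1 ranked in the top 1.18% of genes with an NRF1 summit. NFRKB had 1172, and RUVBL2, UCHL5, ACTR5, INO80B and RUVBL1 had between 7.91 and 169. INO80, INO80D and TFPT had none, with the nearest NRF1 summit 164029 bp from INO80 and 72965 bp from INO80D. INO80C also had the highest SP1 score of the 42, 3648, 2 bp from its 5′ end. RUVBL1 and RUVBL2 encode paired ATPases that INO80 shares with other complexes. At the gene 5′ end they differed, since RUVBL2 had all 4 factors, with SP1 at 1263, and RUVBL1 had YY1 at 535 and NRF1 at 7.91 only.

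The highest YY1 summits lay mostly inside the genes. Their median offset was 150 bp downstream of the gene 5′ end over the 35 members, against 60 bp over all genes, and 27 of the 35 (77.1%) were downstream, against 61.5%. With windows of 250 bp the medians were 66 and 52 bp, and with the summit nearest to the 5′ end 78 and 63 bp. The median offset of ZNF143 was 43 bp downstream against 19 bp upstream (-19) over all genes. For SP1 it was -12.5 bp against -38, and for NRF1 -6 bp against -29. Measured from the 5′ end of the Ensembl canonical transcript, the members' medians were 50 bp for YY1, -35.5 for ZNF143, -76 for SP1 and -49.5 for NRF1, and those of all genes were 30, -59, -73 and -66. The ZNF143 median therefore changed side with the choice of start, and that of YY1 stayed downstream at both.

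**Figure D3:**
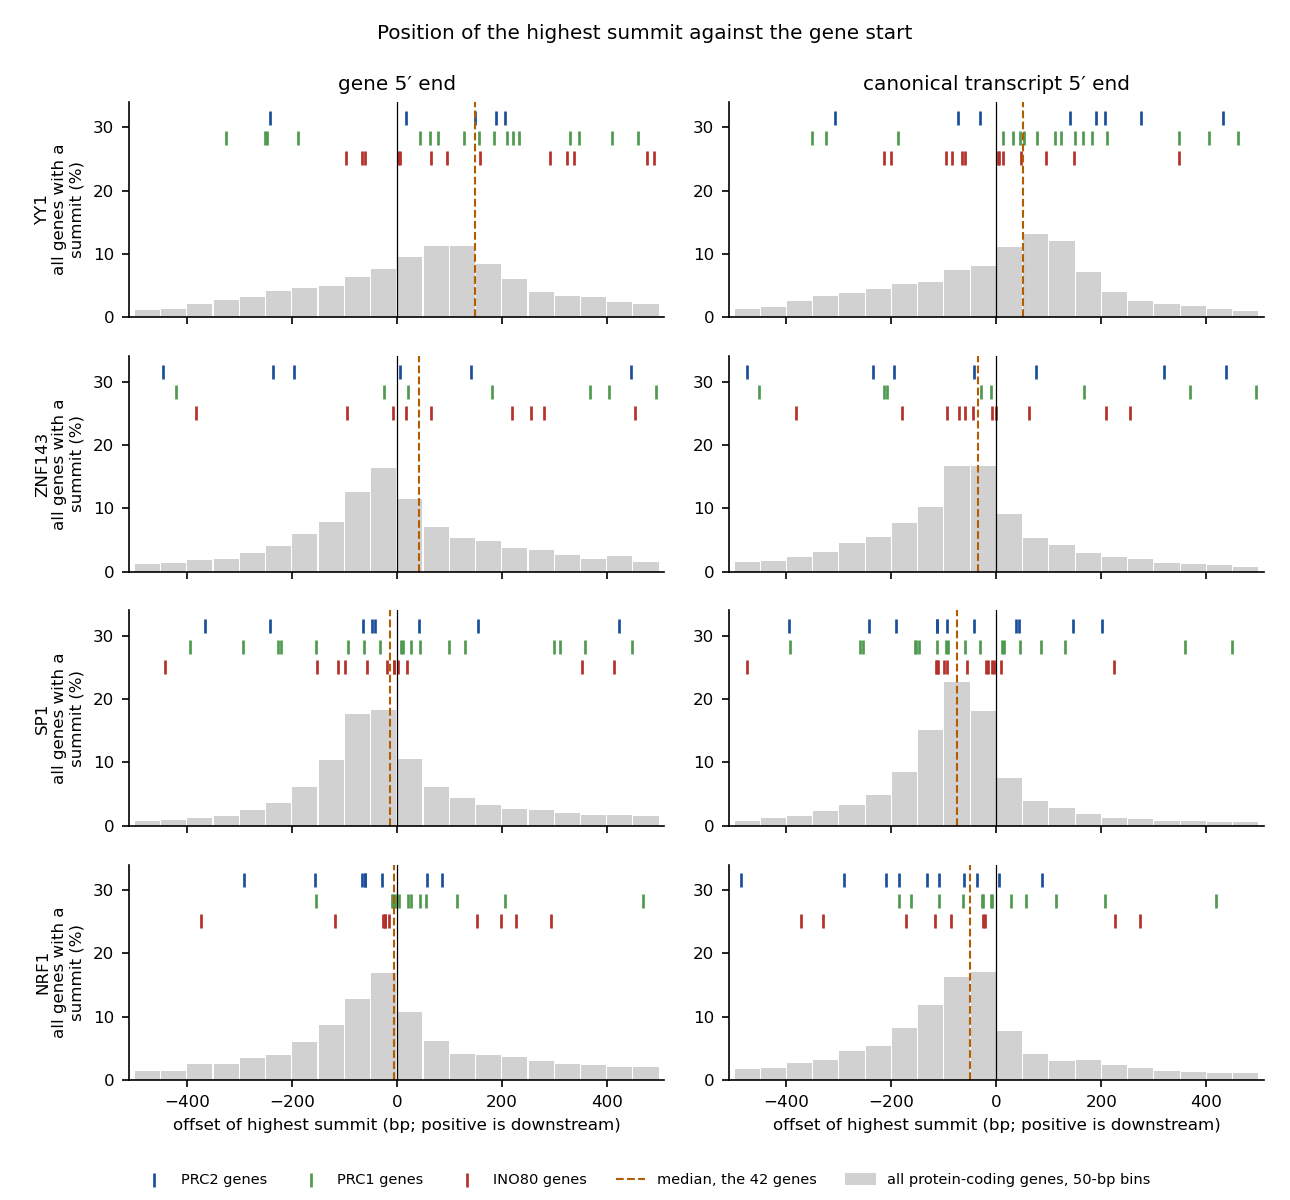
Offset of the highest summit from the gene 5′ end (left) or the canonical transcript 5′ end (right) in bp, positive downstream, for each list. Grey bars give the percent of all genes with a summit per 50-bp bin, coloured ticks the PRC2, PRC1 and INO80 genes, and dashed lines the median of the members, which for YY1 lies at 150 bp (left) and 50 bp (right).

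The highest summits of different factors lay within 100 bp of each other at a smaller share of members than of all genes. YY1 and ZNF143 lay within 100 bp of each other at 9 of 21 members with both (42.9%), against 60.2% of all genes with both. YY1 and SP1 did so at 12 of 34 (35.3%) against 50.4%, and YY1 and NRF1 at 4 of 27 (14.8%) against 34.2%. ZNF143 and SP1 did so at 10 of 22 (45.5%) against 65.9%, ZNF143 and NRF1 at 4 of 19 (21.1%) against 47.3%, and SP1 and NRF1 at 11 of 29 (37.9%) against 49.6%. All 6 pairs had a lower share within 100 bp in the members, and these pairs share genes and summits. Within 250 bp the order turned for YY1 and NRF1, at 77.8% of members against 73.0%. With the nearest pair of summits within 100 bp, the shares were closer for all pairs but ZNF143 and NRF1 (21.1% against 53.9%). They were 61.9% against 70.5% for YY1 and ZNF143, 55.9% against 60.6% for YY1 and SP1, and 29.6% against 45.4% for YY1 and NRF1. For ZNF143 and SP1 they were 68.2% against 71.1%, and for SP1 and NRF1 55.2% against 56.1%.

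Over the 18 members with all 4 factors, the highest summits spanned a median of 291 bp, against 221 bp over 5620 genes. Only INO80B (23 bp), ACTR8 (55 bp) and MTF2 (82 bp) had them within 100 bp, which 19.2% of all such genes did. In INO80B the YY1, ZNF143, SP1 and NRF1 summits lay at -97, -95, -99 and -118 bp, with scores of 6332, 75.1, 603 and 15.0. In ACTR8 they lay at -60, -8, -5 and -22 bp, with scores of 7170, 104, 459 and 11669. The widest span among members was 576 bp at CBX6.

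Which start site is meant changes the account for 11 of the 42 genes, whose canonical transcript starts more than 500 bp from the gene 5′ end, as it does for 21.6% of all genes. The other 31 members had the same calls in all 4 lists at both. At the canonical 5′ end YY1 stood at 38 members against 63.1% of all genes, ZNF143 at 26 against 34.8%, SP1 at 42 against 64.5% and NRF1 at 32 against 52.8%. All 4 stood at 22 members against 31.6%, and no member was without a summit, against 33.2% of all genes. CpG-rich windows were found at 41 members there, against 66.3%. Among CpG-rich canonical starts of all genes the shares were 86.8%, 49.7%, 87.6% and 75.0% for YY1, ZNF143, SP1 and NRF1.

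EED gained all 4 factors at its canonical start 43541 bp downstream, at chr11:86244753, with 285 for YY1, 48.5 for ZNF143, 597 for SP1 and 8318 for NRF1. AEBP2, 35447 bp downstream, had YY1 at 821, SP1 at 211 and NRF1 at 2588. PHF19, 17708 bp downstream, had YY1 at 398, SP1 at 54.0 and NRF1 at 7.01. All 3 genes that lacked a summit at the gene 5′ end thus had at least 3 factors at the canonical start. A RefSeq start coincides with the canonical one in EED and PHF19 and lies 1107 bp from it in AEBP2.

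RUVBL1 had 4 lists at its canonical start 30102 bp downstream, against 2 at the gene 5′ end, with ZNF143 at 53.3 and SP1 at 893. UCHL5 gained ZNF143 at 1511 at a start 720 bp downstream, CBX8 gained ZNF143 at 13.0, and PHC1 and PCGF5 gained NRF1, at 10.7 and 53.9. SP1 at CBX8 was 830 there, against 67.2 at the gene 5′ end. The ZNF143 summit gained by UCHL5 lay 661 bp downstream of its gene 5′ end, and RO60 starts on the opposite strand at 626 bp. It may therefore be counted for RO60 as much as for UCHL5. Calls were lost at 3 genes, NRF1 in each case: INO80E, PHF1 and PCGF2. After the change of start, the members without YY1 were EZH2, JARID2, PHF1 and KDM2B.

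**Figure D4:**
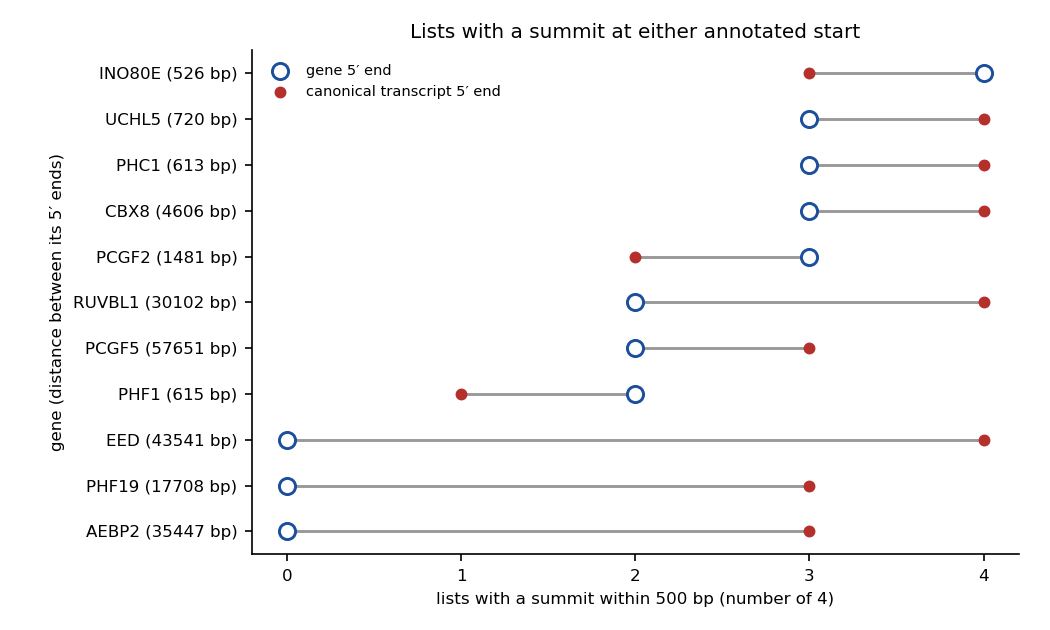
Number of summit lists (of 4, horizontal axis) with a summit within 500 bp of the gene 5′ end (open circles) and of the canonical transcript 5′ end (filled circles), for the 11 members whose canonical start lies more than 500 bp away, with that distance in bp beside each name. The number is higher at the canonical start for 8 of them and lower for INO80E, PCGF2 and PHF1.

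Some summits may be counted for a neighbour as much as for the member. A protein-coding gene starts on the opposite strand within 1000 bp of 8 of the 42 members, against 13.4% of all genes. At these the highest YY1 summit was nearer to the neighbour's start in 4 of 8, ZNF143 in 2 of 5, SP1 in 2 of 7 and NRF1 in 0 of 7. The YY1 summit of RBBP4 lay 242 bp upstream of it and 3 bp from the start of ZBTB8OS. The ZNF143 summit of TFPT lay 255 bp inside TFPT and 8 bp from the start of PRPF31, a splicing factor gene. At INO80E the YY1, ZNF143 and SP1 summits lay at 325, 454 and 413 bp, all nearer to HIRIP3, which starts 359 bp downstream, and the NRF1 summit lay 23 bp upstream of INO80E. The TFPT region also recurs on 9 other contigs, each with a ZNF143 summit, of up to 1567.

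The YY1 letters stood in the windows of 8 members (19.0%), against 7.58% of all genes. All 8 had a YY1 summit, as did 1333 of the 1514 genes with the letters among all genes. The YY1 letters were within 50 bp of the highest YY1 summit at 4 of 35 members (11.4%), against 6.91%. The ZNF143 letters stood in 8 windows (19.0%), against 14.3%, and near the highest summit at 2 of 22 (9.09%), against 5.6%. Of the 8 members with these letters, 4 had a ZNF143 summit, against 966 of 2854 among all genes. In INO80 the YY1 and ZNF143 letters overlap.

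The SP1 letters, the shortest of the 4, stood in 33 windows (78.6%), against 55.8%, and near the highest SP1 summit at 12 of 38 members (31.6%), against 27.8%. Within 100 bp of that summit they stood at 42.1% of members against 43.3%. The NRF1 letters stood in 16 windows (38.1%), against 14.7%, and near the highest NRF1 summit at 12 of 30 (40.0%), against 22%. Within 100 bp of the highest NRF1 summit they stood at 16 members (53.3%), against 23.7%. All 16 members with the NRF1 letters had an NRF1 summit, as did 2543 of the 2932 genes with them among all genes. Some places match the NRF1 letters on both strands, as in PHC3.

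Scores followed the letters most plainly for NRF1. The 12 members with the letters near the highest NRF1 summit had scores from 1179 to 14558 with a median of 8085, and the 18 without had scores from 3.44 to 5808 with a median of 54.22. Over all genes the medians were 4276 with and 24.68 without. The groups overlapped in the members, since RBBP7 (5808), PCGF3 (4868) and RBBP4 (2150) scored above 1179 without the letters within 50 bp. The letters did lie 84 bp from the highest NRF1 summit in RBBP7 and 89 bp from it in PCGF3. For YY1 the medians were 1884 over 4 members with and 159.6 over 31 without, against 1860 and 124.7 over all genes. For SP1 they were 287.4 and 144.8, against 232.8 and 184.5. For ZNF143 the 20 members without the letters had a median of 47.63, against 20.77 over all genes, and the 2 with them, SUZ12 and MTF2, had 1545 and 4302. Median scores of the members were thus higher with the letters than without for every factor, and the gap was smallest for SP1.

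**Figure D5:**
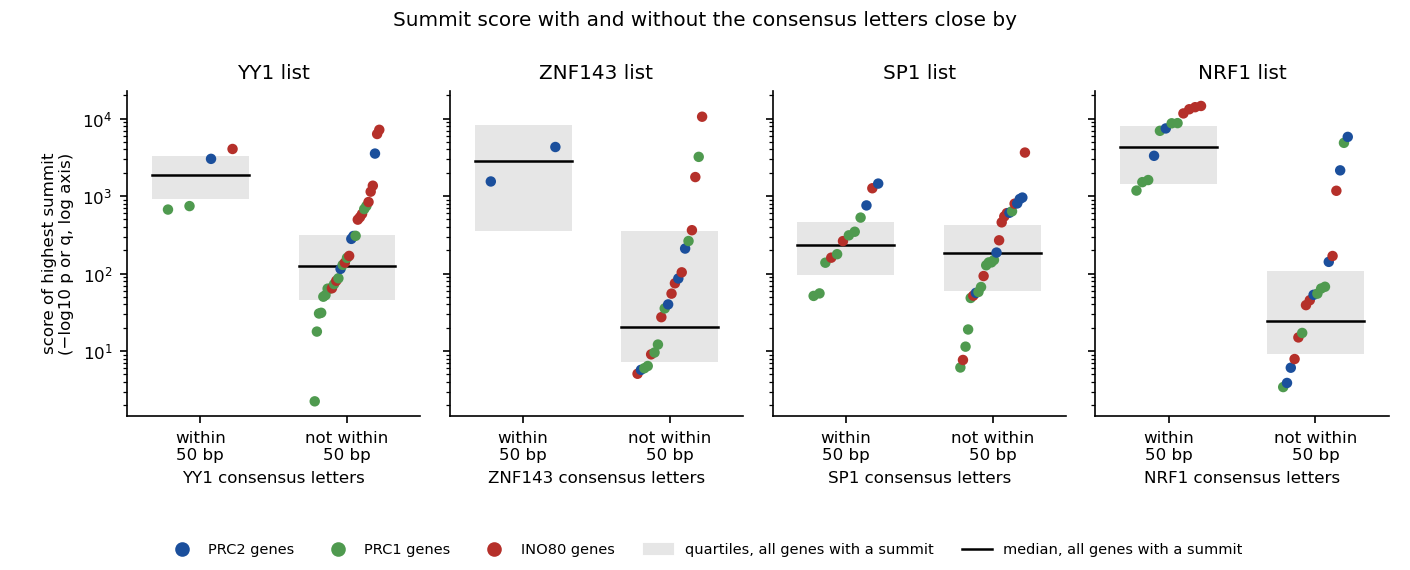
Score of the highest summit (vertical log axis, −log10 p or q) for members with and without the consensus letters of that factor within 50 bp of it, 1 panel per list. Points are members coloured by complex, grey boxes span the quartiles of all genes with a summit and black lines their median; for NRF1 the 12 members with the letters start at 1179 and the 18 without reach 5808.

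The highest YY1 scores did not all stand on exact letters. Within 50 bp of the highest YY1 summit, ACTR8 held AAGATGGCC, 1 letter away from the consensus and 5 bp from the summit, and RBBP4 held AAAATGGCT, 28 bp from it. INO80B, with the second highest score of the members, held no match with up to 1 difference there. With 1 difference allowed, 8 of 35 members (22.9%) had the YY1 letters near the summit, against 18.4% of all genes with a YY1 summit.

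In RBBP7, PCGF1, PHC3 and ACTR5 the ATG inside the YY1 letters was the annotated start codon of the canonical transcript. This was looked for after the letters had been seen, and it held for 9.52% of the members and 1.98% of all genes. Among genes with the YY1 letters it held for 4 of 8 members (50.0%), against 26.2% of all genes. The letters lay 28, 35 and 20 bp downstream of the 5′ end in PCGF1, PHC3 and ACTR5, and 310 bp downstream in RBBP7. All 4 had YY1 summits, as did 98.0% of the 396 genes with the letters on the start codon and 88.0% of all genes with the letters. The sites not yet shown read:
RBBP7 (chrX:16870037-16870066, minus strand): gacccgacgcAAGATGGCGagtaaagagag
PHC3 (chr3:170181699-170181728, minus strand): tggaggagagAAGATGGCGgaagcggagtg
ACTR5 (chr20:38748466-38748495, plus strand): cgcgcgctccAAGATGGCGgcgaacgtgtt

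Of 44 other genes of these pathways, YY1 had a summit at 36, ZNF143 at 25, SP1 at 35 and NRF1 at 34. All 4 stood at 22 (50.0%), against 28.1% of all genes. The PR-DUB genes, whose products remove ubiquitin from H2A and so oppose PRC1, had YY1 at 11 of 11, ZNF143 at 10, SP1 at 11 and NRF1 at 10. Over all genes the shares were 57.8%, 31.7%, 59.1% and 48.3%. HCFC1, a host-cell factor in PR-DUB, had a YY1 score of 11925, and ASXL1, which activates the PR-DUB enzyme BAP1, had ZNF143 at 12848. LCORL, a PRC2 cofactor, had ZNF143 at 13802 and L3MBTL2, a partner of variant PRC1, 8293. MAX, another partner of variant PRC1, had the highest ZNF143 score of the 44, 13808. The YY1 gene itself had all 4, with YY1 at 321, and SFMBT2, whose fly homologue pairs with Pleiohomeotic, had YY1 at 662. No list had a summit at the gene 5′ end of 6 of the 44 (13.6%, all genes 37.3%), SFMBT1, L3MBTL1, EZHIP, BCORL1, USP7 and HDAC2. At the canonical transcript start this held for only 1 of the 44 (2.27%, all genes 33.2%). The shares, 81.8%, 56.8%, 79.5% and 77.3% for YY1, ZNF143, SP1 and NRF1, stand beside 83.3%, 52.4%, 90.5% and 71.4% in the 42.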

How the data were processed

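ChIP-seq data of 32 samples were available as 4 deposited summit lists, 1 per antibody. The labels tie the SP1 and ZNF143 lists to untreated and treated samples alike, and name no list for the NRF1 and YY1 samples, whose lists were matched by antibody. Column 5 of the deposited lists holds −log10 values of the authors' peak caller, and whether of p or q is not given in the sources used here. The submitters' processing notes name cutadapt, Bowtie2, SAMtools 1.16.1, MACS3, bedtools and hg38, with no roles.

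Summits on chromosomes 1 to 22 and X were compared with GENCODE 44 gene 5′ ends in Python 3.11.15 with numpy 2.4.6, and the highest within 500 bp gave score and offset. Motifs were searched on both strands. No test was run. Scripts were checked on simulated data. A RefSeq start was listed for 40 of 42 members. It lay within 100 bp of the gene 5′ end in 28 members and of the canonical 5′ end in 35.

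Members, pathway genes and role groups were chosen with earlier results of these data known. A rule set which members were named: every member lacking a summit in a list, the 5 highest and 5 lowest scores per list, members whose calls change with the start site, and those with YY1 letters within 50 bp of the highest YY1 summit. Other members were described beside them. The other pathway genes were named outside this rule, some of them for high scores. Sequences were to be printed where YY1 or ZNF143 letters lay that near the highest summit, and the others were chosen after their values were seen.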

Additional observations from a re-analysis of the deposited data

How the results depend on the processing

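Alternatives were judged by whether a count stayed within 1.5 times, and a median within its 95% interval over the members, which is wide. By that measure 74 kept one of the 23 values, 20 moved it and 2 turned its sign. Lists shortened to the 16165 highest summits each left 23 members with YY1 (54.8%, all genes 36%), 20 with SP1 (47.6%, all genes 32.6%) and 11 with all 4 (26.2%, all genes 18.1%), and the top 50% of each list left 11 with all 4 (all genes 16.2%). The median ZNF143 offset turned to -35.5 bp at canonical starts, where SP1 moved to -76.0 and NRF1 to -49.5, and the SP1 median turned to 2.0 bp with windows of 1000 bp. Within those wide intervals, the YY1 offset still ranged from 50 to 150 bp and the NRF1 score from 472.5 to 1179.

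Counts of summit pairs followed the distance allowed, and are given with the share of members and then of all genes. Within 50 bp they were 4 for YY1 and ZNF143 (19.0%, 40.1%), 2 for YY1 and NRF1 (7.41%, 18%) and 5 for ZNF143 and SP1 (22.7%, 47.7%). For SP1 and NRF1 they were 8 (27.6%, 28.3%), at the background. Within 250 bp they were 22 for YY1 and SP1 (64.7%, 81.5%), 21 for YY1 and NRF1 (77.8%, 73.0%), 16 for ZNF143 and SP1 (72.7%, 87.4%), 12 for ZNF143 and NRF1 (63.2%, 78.5%) and 22 for SP1 and NRF1 (75.9%, 82.5%). With the nearest pair of summits they were 19 for YY1 and SP1 (55.9%, 60.6%) and 8 for YY1 and NRF1 (29.6%, 45.4%). With 1 mismatch the letters stood near the highest summit in 8 members for YY1 (22.9%, 18.4%), 7 for ZNF143 (31.8%, 31.9%), 30 for SP1 (78.9%, 78.0%) and 19 for NRF1 (63.3%, 53.8%), so for ZNF143 and SP1 the members then lay at the background.

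Restricting to CpG-rich windows, or leaving out members with copies on other contigs, was chosen after seeing the data. The CpG limit kept 39 members, and 4 members had copies. With so few left out no count could leave 1.5 times, so these settings cannot test the counts. They are included above among the alternatives that kept a value. The CpG limit brought the shares of members and background closer, to 89.7% and 85.2% for YY1 and 56.4% and 49.2% for ZNF143. For SP1 they were 94.9% and 85.6%, and for NRF1 76.9% and 74.1%. No paired analysis was possible because the lists hold no column for a sample. Read depth is unknown, and a missing summit can be a weak one.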
